A study of Mus musculus with 6 samples.

Results

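The integrated stress response effectors described here are 10 genes taken by name from a table of 29721 genes: Atf4, Atf5, Ddit3, Trib3, Ppp1r15a, Asns, Chac1, Sesn2, Nupr1 and Fgf21. All 10 had a row in the counts and all 10 passed the filter on low counts. RNA was sequenced from the pancreas of 6 mice, all 3 months old, each giving its own library: 3 had wild-type Parp2 and 3 were labelled PARP2 knockout. Every animal, control or knockout, was Ela-myc, a model in which the elastase promoter drives Myc in the enzyme-secreting acinar cells and tumours form. Neither the deleted part of Parp2 nor any limit of the deletion to a cell type is stated in the labels. The tissue is labelled pancreas and the deposited counts are labelled preneoplastic, but the protocol text refers to tumours. Libraries held 28105021 to 32055565 counts. Levels are given as CPM, counts relative to library totals that were scaled by the trimmed mean of M-values (TMM). Parp2 itself stood at 36.4 to 40.5 CPM in wild type and 12.4 to 14.4 CPM in knockout.

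In the integrated stress response, kinases that sense unfolded protein, amino acid shortage, viral RNA or heme shortage phosphorylate the translation factor eIF2. General protein synthesis slows, while a few messages with upstream reading frames, Atf4 among them, are translated more. ATF4 then switches on genes for amino acid supply, for glutathione turnover and for feedback on the pathway, and with CHOP, the product of Ddit3, it can lead to cell death. Acinar cells make more secretory protein than almost any other cell and rely on the PERK branch of this response. Because ATF4 output is set largely at translation, levels of its messenger RNA are not levels of its protein.

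Of the 10 effector genes, 6 fell in knockout, 1 rose and 3 did not pass the test (edgeR quasi-likelihood test, Benjamini-Hochberg adjusted p under 0.05 over 17652 genes). Among all genes tested 25.0% fell and 28.0% rose by the same rule, 53.0% in all. The falls were in Atf4, Atf5, Trib3, Asns, Chac1 and Fgf21, and the rise was in Ppp1r15a. The median log2 fold change, knockout minus wild type, was -1.23 over the 10 genes and 0.02 over all genes tested. For 7 genes every knockout library lay below every wild-type library, a pattern that 33.7% of all tested genes showed, and for Ppp1r15a every knockout library lay above, as for 34.4% of tested genes. Ddit3 and Sesn2 overlapped between the genotypes. Without knockout replicate 3, the library with almost no digestive enzyme RNA, 6 fell and 1 rose, but Trib3 was no longer among the falls (edgeR adjusted p = 0.0512) and Nupr1 was (0.0378). The falls numbered 3 without knockout replicate 1 and 4 with sex or the digestive enzyme level as a term, and no gene rose without knockout replicate 1 or without any 1 of the controls.

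**Figure D1:**
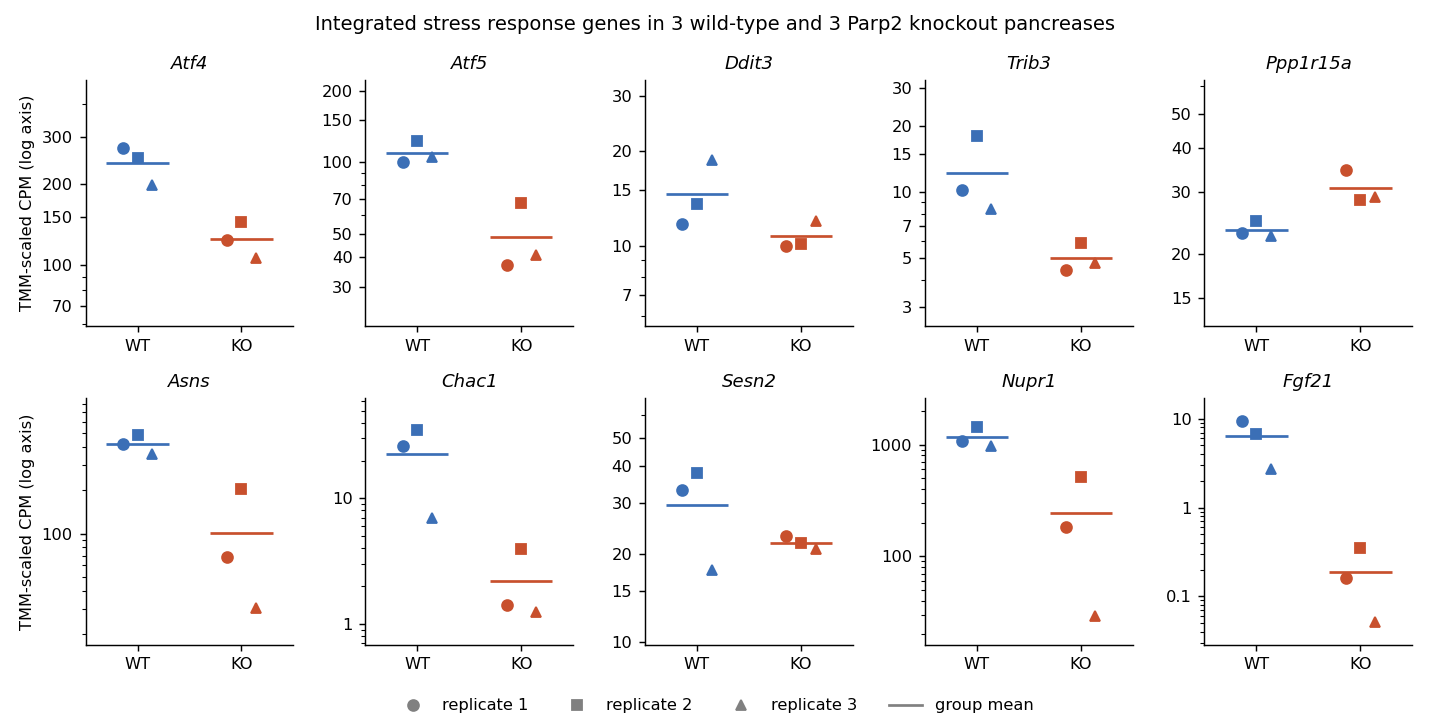
CPM, scaled by the trimmed mean of M-values (TMM), of each gene on a log axis, in 3 wild-type (WT, blue) and 3 knockout (KO, orange) libraries, with symbols for replicates and a line at each group mean. The genotypes separate for all genes but Ddit3 and Sesn2, Ppp1r15a is the only gene of the 10 that is higher in knockout, and Fgf21 has the widest gap.

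The knockout libraries differed from one another in RNA of pancreatic epithelial genes, and 5 of the effector genes varied in the same order. A list of 22 digestive enzyme genes took 24.9%, 26.8% and 20.8% of counts in wild type replicates 1, 2 and 3 but 3.82%, 13.1% and 0.0163% in knockout replicates 1, 2 and 3, with 1 of the 22 genes at 0 counts in the last. Of the 22 genes 0 passed the edgeR test, 0 had an unadjusted p under 0.05, and 2 passed by the DESeq2 Wald test and 2 by limma-voom. Their median log2 fold change was -2.38. Summed levels of islet and duct genes were also lower, 3.34 to 618 CPM against 1462 to 3457 CPM in wild type for islet and 14.2 to 593 CPM against 1303 to 2073 CPM for duct. By the edgeR test 3 of 12 islet genes, 3 of 8 duct genes and 3 of 8 acinar transcription factor genes fell, where 25.0% of all tested genes did. All 11 fat cell genes and all 11 T cell genes rose, as did 9 of 10 B cell genes and 7 of 8 endothelial genes. The remaining B cell gene, Sdc1, which epithelial cells also express, fell by 1.70 on the log2 scale. Of 9 macrophage genes 2 fell and 2 rose, and of 9 fibroblast genes 4 fell and 0 rose. The summed level of the fat cell list was 985 to 2247 CPM in wild type and 11972 to 15835 CPM in knockout, and that of the T cell list was 81.4 to 217 CPM and 568 to 1393 CPM. In bulk tissue, fewer cells of a type and less RNA per cell cannot be told apart. For 5 of the 10 effector genes, Atf4, Asns, Chac1, Nupr1 and Fgf21, the knockout libraries stood in the order 2, 1, 3 from the highest, which is the order of their digestive enzyme share. Of all tested genes 25.8% had that order. Wild type replicate 1, wild type replicate 2 and knockout replicate 1 were male by their Xist and Y-linked counts, and the remaining 3 libraries were female.

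**Figure D2:**
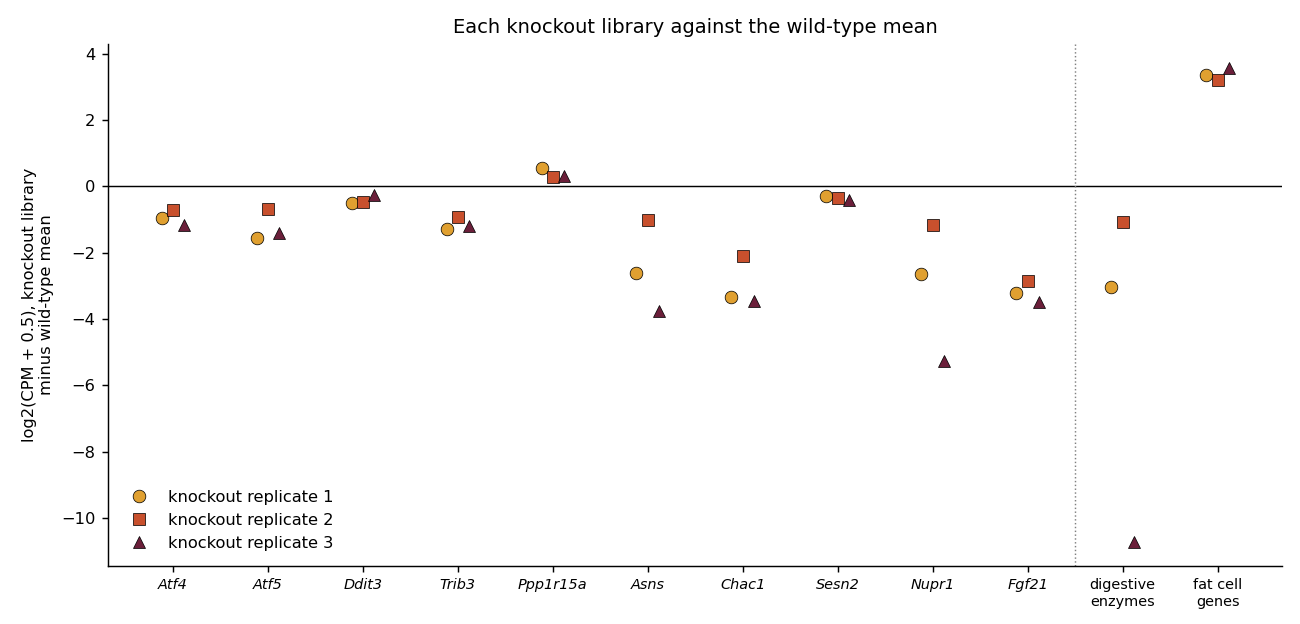
Difference of each knockout library from the wild-type mean, in log2(CPM + 0.5), for the 10 genes and, right of the dotted line, the median of 22 digestive enzyme genes and of 11 fat cell genes. Nupr1 and Asns spread between knockout libraries from -1.16 to -5.28 and from -1.03 to -3.76, whereas Atf4 stays between -0.73 and -1.16 and the digestive enzymes reach -10.73 in replicate 3.

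Of the 3 transcription factor genes, Atf4 and Atf5 fell and Ddit3 did not pass. Atf4, which encodes the central factor of the response (ENSMUSG00000042406, chromosome 15, 80255184 to 80257541, GRCm38), measured 273, 250.5 and 198 CPM across the controls against 123, 144 and 106 CPM across the knockouts. All 3 knockout libraries were below the lowest wild-type library, and they were as close to one another as the wild-type libraries were. The mean went from 240.4 ± 38.4 to 124 ± 18.8 CPM (SD, n = 3 each), a log2 difference of -0.95 ± 0.17 (SE) with an edgeR adjusted p of 0.00549. Atf5, a relative of ATF4 that is also controlled through upstream reading frames (ENSMUSG00000038539, chromosome 7, 44812256 to 44816658), measured 100.1, 123 and 105 CPM across the controls against 37.0, 67.5 and 40.9 CPM across the knockouts. Knockout replicate 2 was the highest of its group and still below wild type. The log2 fold change was -1.18 (SE 0.24, edgeR adjusted p = 0.00994). With the digestive enzyme level as a term in the fit, Atf4 and Atf5 kept their calls, with log2 fold changes of -0.74 and -0.93 (edgeR adjusted p = 0.0271 and 0.0445). The digestive enzyme share was lower in every knockout library than in every control. Fits with this term therefore cannot fully separate the enzyme level from genotype.

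Ddit3, which encodes CHOP, a factor tied to cell death under lasting stress (ENSMUSG00000025408, chromosome 10, 127290774 to 127296288), measured 11.7, 13.6 and 18.7 CPM across the controls against 10.03, 10.1 and 12.03 CPM across the knockouts. The highest knockout library lay above the lowest wild-type library. The log2 fold change of Ddit3 was -0.45 (SE 0.20, edgeR adjusted p = 0.098). With sex as a term Ddit3 was called lower (edgeR adjusted p = 0.0499). When scaled by library totals alone its log2 fold change was -0.07 (edgeR adjusted p = 0.84), and without wild type replicate 3 it was -0.24 (0.247). Ddit3 overlaps another gene model of the same name, not used here, and Mars and Gm4189 on the other strand, by up to 105 exonic bases. Atf5 overlaps Nup62 and Il4i1 on the other strand by up to 82 exonic bases, and Ppp1r15a overlaps Tulp2 by 12. The strand setting of the counting is not given in the sources used here, so reads of these short stretches are uncertain.

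The feedback genes moved in opposite directions. Trib3 encodes a pseudokinase that is induced by ATF4 and CHOP and dampens them (ENSMUSG00000032715, chromosome 2, 152337422 to 152344032). It measured 10.3, 18.1 and 8.40 CPM across the controls against 4.43, 5.90 and 4.75 CPM across the knockouts. The knockout libraries were tightly grouped, while wild type replicate 2 stood well above the other 2 controls. The log2 fold change of Trib3 was -1.28 (SE 0.32, edgeR adjusted p = 0.0163). The call ended without knockout replicate 1 or 3 (adjusted p = 0.072 and 0.0512), with sex as a term (0.0549) and with the digestive enzyme level as a term (0.0835).

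Ppp1r15a encodes GADD34, the stress-induced subunit that directs protein phosphatase 1 to eIF2 and so ends the response (ENSMUSG00000040435, chromosome 7, 45522916 to 45526268). It measured 22.9, 24.8 and 22.4 CPM across the controls against 34.7, 28.5 and 28.9 CPM across the knockouts. The wild-type libraries were nearly equal, and each knockout library was higher than all of them. The rise was small, from 23.3 ± 1.24 to 30.7 ± 3.47 CPM (SD, n = 3 each), a log2 difference of 0.40 ± 0.11 (SE) with an edgeR adjusted p of 0.0236. The call was lost when any control or knockout replicate 1 was left out (adjusted p between 0.0514 and 0.0753) and with the digestive enzyme level as a term (0.0643). Its constitutive counterpart Ppp1r15b measured 185 ± 19.1 CPM across the controls against 164 ± 8.76 CPM across the knockouts and did not pass (edgeR adjusted p = 0.196).

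Among the metabolic targets, Asns and Chac1 fell and Sesn2 did not pass. Asns encodes asparagine synthetase, the classic target of the amino acid branch (ENSMUSG00000029752, chromosome 6, 7675169 to 7693254). It measured 421, 487 and 358 CPM across the controls against 68.6, 205 and 30.4 CPM across the knockouts. All knockout libraries were lower, but replicate 2 held 6.76 times the level of replicate 3. The log2 fold change was -2.06 (SE 0.69, edgeR adjusted p = 0.0495), at the edge of the threshold. The call was lost when any control or knockout replicate 1 was left out (adjusted p = 0.095 to 0.143). Other fits that ended it were scaling by library totals alone, no count filter, sex as a term and the digestive enzyme level as a term (adjusted p = 0.06, 0.137, 0.0987 and 0.0547). In the last fit the log2 fold change was -1.13, and without knockout replicate 2 it was -3.10 (edgeR adjusted p = 0.00382).

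Chac1 encodes an enzyme that cleaves glutathione and is induced by ATF4 and CHOP (ENSMUSG00000027313, chromosome 2, 119351229 to 119354381). It measured 26.1, 34.8 and 6.92 CPM across the controls against 1.41, 3.91 and 1.23 CPM across the knockouts. Wild type replicate 3 was 4.399 times below the mean of the other 2 controls, yet 1.77 times above the highest knockout library. Chac1 fell 10.4-fold, a log2 difference of -3.38 ± 0.77 (SE) with an edgeR adjusted p of 0.0143. The call ended without knockout replicate 1, with sex as a term and with the digestive enzyme level as a term, at adjusted p = 0.0569, 0.0703 and 0.0565. In the last of these fits the log2 fold change was -2.68, and without knockout replicate 2 it was -4.10.

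Sesn2 encodes sestrin 2, a sensor of leucine that restrains the growth kinase mTORC1 (ENSMUSG00000028893, chromosome 4, 132492032 to 132510501). It measured 33.1, 37.9 and 17.7 CPM across the controls against 23.1, 21.8 and 20.8 CPM across the knockouts. The knockout libraries were almost identical and fell between wild type replicate 3 and the other 2 controls. The log2 fold change of -0.43 (SE 0.27) did not pass (edgeR adjusted p = 0.217), but without wild type replicate 3 it was -0.71 and passed (adjusted p = 0.0107). When scaled by library totals alone it was -0.00.

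Of the acinar stress factors, Fgf21 showed the largest fall of the set, whereas Nupr1 varied most between knockout libraries and did not pass. Nupr1 encodes a small chromatin protein, first found in inflamed pancreas, that rises under stress (ENSMUSG00000030717, chromosome 7, 126623249 to 126630861). It measured 1079.9, 1447 and 975 CPM across the controls against 183, 513 and 29.2 CPM across the knockouts. Every knockout library was below wild type, and the highest exceeded the lowest 17.6 times. With that spread the log2 fold change of -2.27 (SE 0.95) did not pass (edgeR adjusted p = 0.0896). It passed without knockout replicate 2 or 3 (adjusted p = 0.0329 and 0.0378), by the DESeq2 Wald test (0.022), by limma-voom (0.0445) and, at -0.99, with the digestive enzyme level as a term (0.0389). Without knockout replicate 2 the log2 fold change was -3.46 and without replicate 3 it was -1.73.

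Fgf21 encodes a secreted hormone that acinar cells release in response to feeding and stress and that liver and fat also make (ENSMUSG00000030827, chromosome 7, 45613886 to 45615490). It had 242, 158 and 78 counts in wild type, or 9.47, 6.79 and 2.69 CPM, and 6, 11 and 2 counts in knockout, or 0.162, 0.347 and 0.0514 CPM. Even the lowest wild-type library held 7.74 times the level of the highest knockout library. Fgf21 fell by 5.09 on the log2 scale (SE 0.76, edgeR adjusted p = 0.0039), and 16 of the 17652 tested genes had a lower fold change. The call held under all 16 alternatives, with adjusted p of at most 0.0243. The log2 fold change was -3.91 with the digestive enzyme level as a term and -5.84 without knockout replicate 2. In knockout replicate 2, which kept the most digestive enzyme RNA of its group, Fgf21 was 18.2 times below the wild-type mean, against 2.27 times for Nupr1 and 2.06 times for Asns. Of a list of 9 liver genes 4 passed the count filter, with a median log2 fold change of -1.60. Cyp2e1 rose, with 40.2 to 85.9 CPM in wild type and 360.5 to 1523 CPM in knockout, and made up nearly all of the list sum of 363 to 1530.2 CPM in knockout, against a sum of 118 to 145 CPM in wild type. Alb, Ttr and Tat did not pass, and their means were lower in knockout, at 5.98, 8.49 and 0.203 CPM against 16.1, 51.6 and 0.689 CPM. The listed liver genes Cps1, Apoh, Serpina1a, Apoa1 and Fgb did not pass the count filter. They had 0 to 6, 0 to 2, 0 to 9, 4 to 23 and 0 to 22 counts per library, respectively. Alb had 95 to 561 counts per library. The part of the fat cell and liver lists in the level of Fgf21 was not tested. Of the genes of its receptor complex, Fgfr1, Fgfr2 and Fgfr4 fell (log2 fold changes -0.77, -1.12 and -1.91, edgeR adjusted p = 0.0171, 0.0314 and 0.0317). All 3 calls ended with sex as a term, with the digestive enzyme level as a term and without wild type replicate 2 or knockout replicate 1, that of Fgfr1 also without wild type replicate 1, and those of Fgfr2 and Fgfr4 also without wild type replicate 3 or knockout replicate 3, with adjusted p of at most 0.142. Those of Fgfr1 and Fgfr2 also ended when scaled by library totals alone, and that of Fgfr2 with no count filter. The co-receptor gene Klb measured 13.9 ± 3.29 CPM across the controls against 30.8 ± 17.3 CPM across the knockouts (SD, n = 3 each) and did not pass (edgeR adjusted p = 0.0703), and Fgfr3 did not pass either (0.105).

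ATF4 binds with C/EBP partners to a composite C/EBP-ATF response element, so the start-site windows of the 10 genes were searched for its core letters TGATGNAA on both strands. Each window, from RefSeq on GRCm38.p6, ran from 250 bases before to 50 bases after a start, and all 10 genes had at least 1. The letters were found once each in Fgf21, Chac1, Nupr1, Asns and Trib3, and not in the windows of Atf5, Atf4, Ddit3, Sesn2 or Ppp1r15a. Of 32851 such windows 3.97% held them. The 5 genes with a match had the lowest fold changes of the set, though Nupr1 did not pass the edgeR test. Trib3 (-1.28, SE 0.32) was close to Atf5 (-1.18, SE 0.24). Atf5 lay below Trib3 by limma-voom and by limma on the deposited log2 values. It also did with sex as a term and without wild type replicate 2 or knockout replicate 2. The cAMP response element TGACGTCA, which does not overlap the other motif here, was found in Ppp1r15a, the gene that rose, and in 1.79% of all windows. The endoplasmic reticulum stress element (CCAAT and CCACG with any 9 bases between them) was found in no window of the 10 genes and in 0.119% of all windows. A match shows only that the letters are present. The set was taken as genes of the ATF4 pathway and acinar stress factors. Its genes and the motifs were chosen with earlier results of these data known. The shares of all windows are therefore no test of the set, and a link between matches and fold changes was not tested. The stretches before the start are shown because they hold the matches that lie before the start. They are given 5′ to 3′ in the direction of the gene with the match in capitals, and TTGCATCA is TGATGCAA read on the other strand.
Fgf21, chr7:45615611-45615640, minus strand: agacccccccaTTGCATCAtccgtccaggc
Chac1, chr2:119351038-119351067, plus strand: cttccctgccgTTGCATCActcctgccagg
Nupr1, chr7:126625562-126625591, minus strand: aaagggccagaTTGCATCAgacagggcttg
Asns, chr6:7693214-7693243, minus strand: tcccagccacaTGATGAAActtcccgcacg
Ppp1r15a, chr7:45526269-45526291, minus strand: cgcctctccggTGACGTCAgcac
The Fgf21, Chac1 and Nupr1 matches share the same 8 letters, with first bases 139, 193 and 110 bases before the start. The Asns match begins 23 bases before the start and differs from them in 1 letter, as TGATGAAA. The Trib3 match, TGATGTAA on the other strand, begins at base 15 of the transcript. In GENCODE vM21 the Asns and Nupr1 stretches lie in exons that reach farther upstream than the RefSeq start, and the other 3 lie outside exons.

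**Figure D3:**
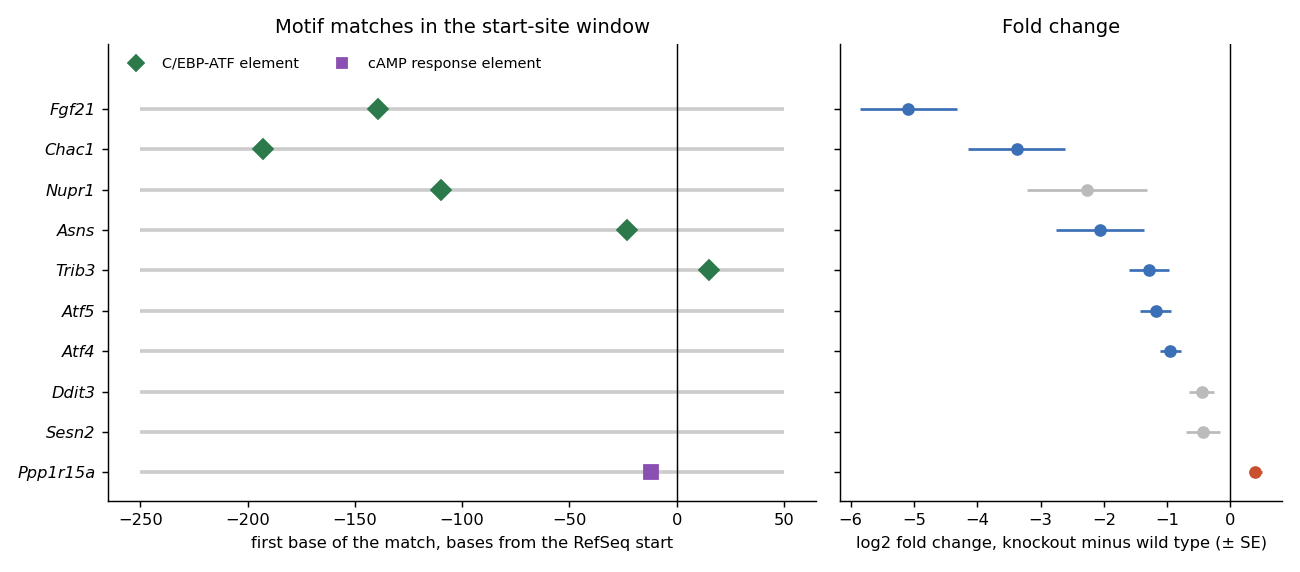
Left, position of each match in the window from 250 bases before to 50 bases after the RefSeq start (diamonds, C/EBP-ATF element; square, cAMP response element), with genes ordered by fold change. Right, log2 fold change ± SE of the same genes (blue, called lower; orange, called higher; grey, not called), where the 5 genes with a diamond are the 5 lowest in this fit. Trib3, with a diamond, and Atf5, without, changed places in some alternative fits.

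Levels of different genes were compared per kilobase of exon, in CPM per kb. In wild type Nupr1 was the most abundant of the set at 464 ± 98.6, followed by Asns at 154 ± 23.6, Atf4 at 102 ± 16.3 and Atf5 at 54.9 ± 6.14 (SD, n = 3 each), and the ranges of these 4 over the libraries did not overlap. The other 6 lay between 5.77 and 13.8 CPM per kb, with ranges that overlapped from each to the next. In knockout Nupr1, Atf4, Asns and Atf5 stood at 96.2 ± 98.3, 52.7 ± 7.98, 37.1 ± 33.6 and 24.3 ± 8.32 CPM per kb (SD, n = 3 each), and their ranges overlapped in that order. Ppp1r15a came next at 10.5 ± 1.18 CPM per kb, with a range below that of Atf5 and above that of Sesn2. Chac1 and Fgf21 were the lowest, at 1.33 ± 0.916 and 0.197 ± 0.157 CPM per kb (SD, n = 3 each), with ranges that did not overlap.

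The pathway lists that follow were chosen with earlier results of these data known, so their counts beside the shares of all genes are no test. Upstream of Atf4, the eIF2 subunit genes Eif2s1 and Eif2s2 and all 5 listed genes of the exchange factor eIF2B fell. The remaining eIF2 subunit gene, Eif2s3x, had a log2 fold change of -0.31, did not pass (edgeR adjusted p = 0.373) and overlapped between the genotypes. Of 17 genes in this list 11 fell and 0 rose (25.0% and 28.0% of all tested genes), with a median log2 fold change of -0.80. At an unadjusted p under 0.05 1 was higher, Impact, which encodes an inhibitor of the amino acid branch, and by the DESeq2 Wald test and limma-voom 0 were. With the digestive enzyme level as a term 11 fell again. Eif2b2, an eIF2B subunit, went from 64.3 ± 6.75 to 33.8 ± 4.57 CPM and Eif2s1, which encodes the phosphorylated subunit of eIF2, from 97.3 ± 7.33 to 53.1 ± 7.81 CPM (SD, n = 3 each). Eif2s2 and Eif2b4 fell by 1.10 and 0.87 on the log2 scale, and these 4 calls, those of smallest p in the list, held in all 16 alternatives. Eif2ak3, which encodes the kinase PERK and was picked with its values in view, measured 343, 388 and 334 CPM across the controls against 89.8, 203 and 56.1 CPM across the knockouts, again with replicate 2 nearest to wild type. Its call (log2 fold change -1.61, edgeR adjusted p = 0.0307) did not hold with any control or knockout replicate 1 removed, with sex as a term or with no count filter (adjusted p at most 0.106). Eif2ak4, which encodes the amino acid kinase GCN2, had 38.1 ± 3.13 CPM in controls and 32.03 ± 0.273 CPM in knockouts (SD, n = 3 each). All its knockout libraries lay below the controls, and at a log2 fold change of -0.25 it missed the threshold (edgeR adjusted p = 0.0524) but passed with DESeq2 size factors, with digestive enzymes left out of the scaling and without wild type replicate 3. The direction of Eif2ak4 changed in 1 of the 16 alternatives, over which its adjusted p reached 0.261. Eif2ak1 and Eif2ak2 did not pass (edgeR adjusted p = 0.587 and 0.723), and differences between the kinases were not tested.

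Downstream, most listed genes of amino acid supply and all those of tRNA charging fell. Of 20 amino acid synthesis and transport targets 12 fell and 2 rose (25.0% and 28.0% of all tested genes), with a median of -1.54. With the digestive enzyme level as a term 15 fell and 2 rose. Shmt2, an enzyme of mitochondrial folate metabolism, fell from 206 ± 23.3 to 60.8 ± 14.2 CPM. The serine synthesis gene Psat1 fell from 210.3 ± 23.9 to 79.3 ± 17.1 CPM and the arginine and lysine transporter gene Slc7a1 from 185 ± 17.2 to 66.0 ± 15.9 CPM (SD, n = 3 each). The glutamine transporter gene Slc1a5 rose, from 256, 259 and 262 CPM to 724, 538 and 549.8 CPM. These 4 calls, those of smallest p in the list, held in all 16 alternatives. The other gene that rose was Slc7a11, with a log2 fold change of 1.37 (edgeR adjusted p = 0.0277). Its call and those of Cth, Psph, Phgdh and Slc7a5 each ended in at least 1 alternative. All 12 listed aminoacyl-tRNA synthetase genes fell, against 25.0% of all tested genes, with a median of -0.96. Without each library in turn 9 to 12 did, and 10 did with the digestive enzyme level as a term. Eprs, Iars, Tars and Mars had the smallest p, with log2 fold changes of -0.96, -1.19, -0.96 and -0.88.

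Of 17 bZIP genes 5 fell and 6 rose (median 0.25), shares near the 25.0% and 28.0% of all tested genes. Cebpa, a differentiation factor of fat, liver and myeloid cells, rose from 79.8 ± 13.6 to 201 ± 15.6 CPM, beside the rise of the fat cell list given above, whose part in it was not tested. Jun fell from 114 ± 12.1 to 43.6 ± 9.33 CPM (SD, n = 3 each), and Maf and Nfe2l1 rose by 0.60 and 0.51 on the log2 scale. Only 2 of the 17 fell without wild type replicate 2 or knockout replicate 1, when scaled by library totals alone, or with the digestive enzyme level as a term, and 3 without wild type replicate 1 or with sex as a term. Cebpg, a dimer partner of ATF4, had 85.3 ± 3.87 and 90.1 ± 12.4 CPM in wild type and knockout and did not pass (edgeR adjusted p = 0.592).

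Of 20 other targets of ATF4 or CHOP 7 fell and 3 rose (25.0% and 28.0% of all tested genes), with a median of -0.12. When scaled by library totals alone 4 fell and 7 rose, and 4 fell with sex as a term or when wild type replicate 1, wild type replicate 2 or knockout replicate 1 was left out. The proapoptotic genes Bbc3 and Bcl2l11 went in opposite directions, by -1.23 and 0.62 on the log2 scale. Ero1l, an oxidase of protein folding, fell by 0.78. In the ATF6 and IRE1 arms, the other branches of the unfolded protein response, 17 of 18 genes fell (25.0% of all tested genes). The median was -1.002, and 15 to 17 fell without each library in turn. With the digestive enzyme level as a term 14 fell, and when scaled by library totals alone 13 did. The chaperone partner genes Dnajb11 and Pdia6 went from 193 ± 17.6 to 95.2 ± 13.6 CPM and from 656 ± 41.0 to 248 ± 59.8 CPM (SD, n = 3 each), and Manf and Creld2 fell by 1.49 and 1.61 on the log2 scale.

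**Figure D4:**
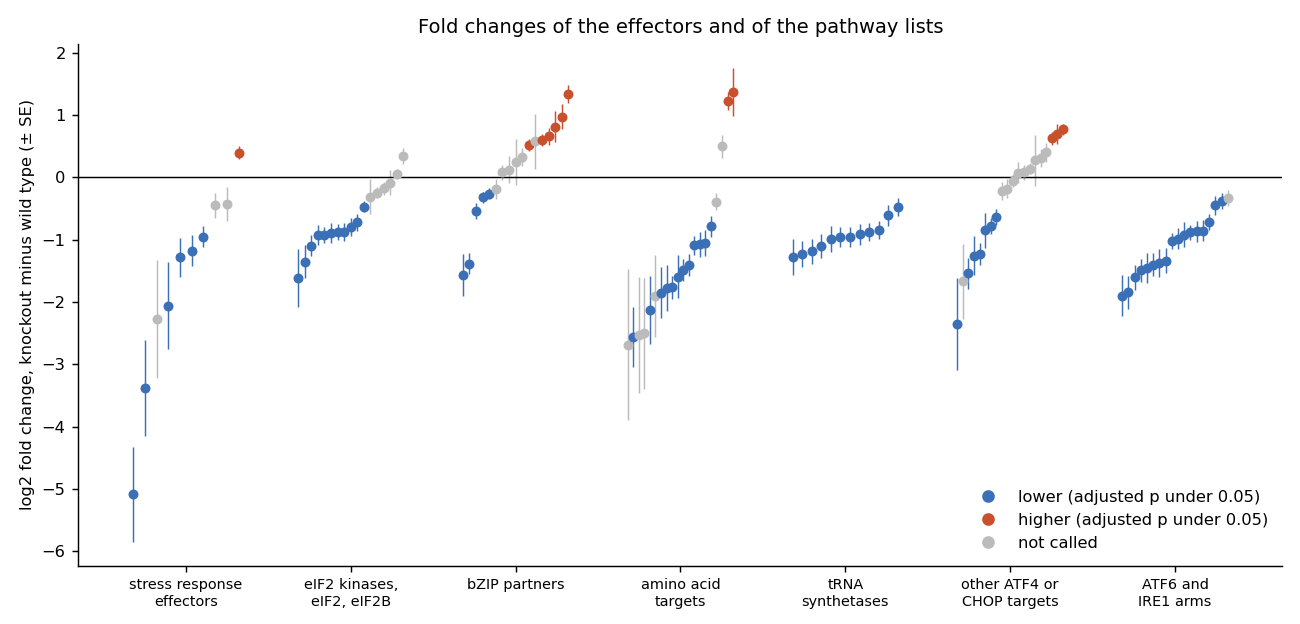
Log2 fold change, knockout minus wild type, ± SE of each gene in the effector set and in 6 pathway lists, ordered within each list and coloured by the edgeR call. Fgf21 and Chac1 are the 2 lowest points of the plot, all 12 tRNA synthetase genes are called lower, and the bZIP partners lie on both sides of 0.

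Of 10 close relatives of the effector genes that were tested, 3 fell and 4 rose, where 25.0% and 28.0% of all tested genes did. Atf3, a stress-induced bZIP gene and ATF4 target, measured 20.3, 24.2 and 18.5 CPM across the controls against 7.81, 9.62 and 3.83 CPM across the knockouts, a fall of 1.57 on the log2 scale (SE 0.34, edgeR adjusted p = 0.0112). The groups did not overlap, and the call held in all 16 alternatives. Of the tribbles genes Trib1 fell, by 0.82 on the log2 scale, as Trib3 did, whereas Trib2 rose by 1.55 (edgeR adjusted p = 0.00501 and 0.0123). The sestrin genes Sesn1 and Sesn3 rose from 50.3 ± 3.53 to 85.5 ± 5.15 CPM and from 67.6 ± 6.41 to 177 ± 35.3 CPM (SD, n = 3 each), with edgeR adjusted p of 0.00234 and 0.00253. Chac2, the constitutive relative of Chac1, fell by 1.12 (edgeR adjusted p = 0.011), a call that ended without knockout replicate 1 (0.0538). Nupr1l did not pass (0.079). Fgf23, a hormone of the same family as FGF21, was at 0.138 to 0.665 CPM in wild type and 0.694 to 2.26 CPM in knockout (edgeR adjusted p = 0.049). Its call ended without any library other than wild type replicate 1 or knockout replicate 2.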

How the data were processed

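The authors deposited whole-number read counts per gene and log2 values. The submitters' processing notes name DESeq2 1.28.1, STAR 2.5.3a, FastQC 0.11.5 and the genome build GRCm38 (mm10). Which program counted the reads, and with what strand setting and annotation, is not given in the sources used here. The deposited log2 values equal log2 of counts over DESeq2 size factors plus 1, within 5.15e-14.

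Counts were tested with edgeR 4.0.16 (R 4.3.3): quasi-likelihood F-test with robust dispersion, TMM scaling, the default expression filter, genotype alone as design, and Benjamini-Hochberg adjustment at 0.05. SE is the absolute log2 fold change over the square root of F. CPM used TMM-scaled totals of tested genes. The fit was tested on simulated counts. The 16 alternatives changed scaling, filter, test (DESeq2 1.42.0, limma 3.58.1) or covariates, or left out each library. Libraries of a genotype differed beyond sampling noise (chi-square per degree of freedom 29.1 to 461). Precision at these depths is limited by the spread between 3 animals. Exon lengths and overlaps came from GENCODE vM21, whose coordinates equal the deposited ones for all 10 genes.

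The genes, lists and motifs were chosen with earlier results of these data known. Named were the 10 genes, their relatives, the FGF21 receptor genes and the 4 genes of smallest p in each pathway list. Genes for Atf4 likeness needed a mean of 1 CPM.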

Additional observations from a re-analysis of the deposited data

How the results depend on the processing

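No paired analysis was possible because the labels give no replicate numbers that the genotypes share. All 10 genes kept the direction of their fold change under all 16 alternatives, and Atf4, Atf5 and Fgf21 also kept their calls. The number of effector genes that fell was 3 to 7 when each library was left out in turn, with 3 without knockout replicate 1, and the number that rose was 0 to 1. With the digestive enzyme level as a term, which separates the genotypes and so is confounded with them, 4 fell and 0 rose. Over all genes, scaling by library totals alone gave 2160 lower and 7475 higher and moved the median log2 fold change by 0.40, and the digestive enzyme level as a term gave 2586 lower and 3219 higher, in place of 4415 and 4938. Without each library in turn 2543 to 5032 genes were lower and 3602 to 5125 higher. When scaled by library totals alone the calls were divided 22.4% lower and 77.6% higher, against 47.2% and 52.8%. The cause of these changes was not tested. Fgf21 in knockout rests on 2 to 11 counts per library.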

Other observations

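Atf4 had a profile over the 6 libraries that many genes outside the stress response shared. Of 15078 genes with a mean of at least 1 CPM, the 5 closest to it by root mean square difference of centred log2(CPM + 0.5) were Pabpc4l, a poly(A)-binding protein gene, Tanc2, Tiam1, a Rac exchange factor gene, Ell2, an elongation factor gene of RNA polymerase II, and Fubp3, with differences of 0.0173 to 0.0553. All 5 fell in knockout, with log2 fold changes between -0.92 and -1.14. Their choice by likeness to Atf4 over these same libraries fixed that fall in advance. Among the effector genes Atf5 and Trib3 were closest to Atf4, at 0.280 and 0.308, and Nupr1 was farthest, at 1.51. Ranked over all genes, these stood at 2211, 2661 and 14154.

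Of the effector genes 4 lie on chromosome 7, and Fgf21, which had the largest fall of the set, lies 87.6 kb from Ppp1r15a, which rose. Atf5 lies 706 kb from Ppp1r15a on the other side. All 3 genes are on the minus strand.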
